A study of Mus musculus with 48 samples.

Results

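Iron uptake, storage and sensing were followed through 8 genes, taken by symbol from a list of named members and matched to the gene identifiers of the files. They are Tfrc and Steap3 (uptake), Fth1 and Ftl1 (storage), Hmox1 (release of iron from haem) and Aco1, Ireb2 and Fbxl5 (sensing), 8 of 23862 gene identifiers in the series. The samples were E14TG2a cells, a single line of mouse embryonic stem cells grown in 2i + LIF medium, in which transcription was stopped with 1 µM flavopiridol, which inhibits the kinase needed for RNA polymerase II to elongate. Polyadenylated RNA of the whole-cell extract (total) and of nuclear, cytosolic and membrane fractions was sequenced after 30, 60, 120 and 240 min, with 3 independently passaged replicates in each of the 16 groups, 48 libraries in all. Every library carries the drug, and the comparison is with the 0 min level of the same fraction: each value is a ratio to that level, and at a ratio of 1 the level equals that at 0 min. Such ratios follow each fraction over time but do not say how a transcript is shared out between fractions. The 0 min libraries were not analysed here. Whether each replicate was divided by its own 0 min library or by their mean is not stated. Tests of levels, against 0 min or between fractions, may therefore leave out the error of the 0 min level. All times of a fraction share that level, so an error in it would shift them alike, and they do not bear out a level independently.

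Cells take up iron mostly as transferrin, which the transferrin receptor carries from the cell surface into endosomes, and surplus iron is stored inside ferritin shells. When iron is scarce, 2 iron regulatory proteins bind hairpins called iron-responsive elements in the transcripts of these genes. Hairpins in the 3′ untranslated region of the receptor transcript guard it against decay, and a hairpin at the start of the ferritin transcripts blocks their translation. When iron is ample, one of the proteins becomes the cytosolic aconitase and the other is degraded.

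These hairpins are shown because Tfrc and the ferritin genes carry them at opposite ends of the transcript. A search of the untranslated regions of the GENCODE M21 transcripts (GRCm38) for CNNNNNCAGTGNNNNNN, on the transcript strand, with the 5 bases before the CAGTGN loop able to pair with the 5 after it (A with T, G with C or T), found 4 matches in Tfrc, 1 in Fth1 and 1 in Ftl1. The capitals mark the 6-base loop within 27 printed bases.
Tfrc 3′ UTR, 1: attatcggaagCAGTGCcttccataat
Tfrc 3′ UTR, 2: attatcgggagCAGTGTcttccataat
Tfrc 3′ UTR, 3: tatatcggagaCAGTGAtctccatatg
Tfrc 3′ UTR, 4: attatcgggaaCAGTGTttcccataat
Fth1 5′ UTR: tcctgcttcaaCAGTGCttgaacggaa
Ftl1 5′ UTR: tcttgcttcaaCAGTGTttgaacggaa
The Tfrc matches lie on the plus strand at chr16:32631220-32631246, chr16:32631599-32631625, chr16:32631664-32631690 and chr16:32631711-32631737. The Fth1 match is at chr19:9982733-9982759 on the plus strand and the Ftl1 match at chr7:45459780-45459806 on the minus strand. No match was found in the untranslated regions of Steap3, Hmox1, Aco1, Ireb2 or Fbxl5, which says only that these letters are not there. Of 20928 genes with a 3′ untranslated region 126 (0.602%) held a match, and of 7932 genes with one within a factor of 2 of the Tfrc length 1.15% did. Tfrc was the only gene with more than 1 match in that region. Of 20847 genes with a 5′ untranslated region 28 (0.134%) held one.

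A library listed between 15067 and 19501 genes, with its median ratio between 0.555 and 0.972 at 30 min and between 0.313 and 0.495 at 240 min. The nuclear 30 min library of replicate 1 stood apart with a median of 0.555, against 0.934 and 0.805 in the other replicates. Of 10 markers of mouse embryonic stem cells 10 were listed, 8 of them in all 48 libraries, while 3 of 5 erythroid, 2 of 4 macrophage and 2 of 4 primitive endoderm markers were listed in at least 1. The macrophage markers Cd68 and Csf1r were in all 48, Gata1, Klf1 and Gata6 in 43, 45 and 42, and the globin genes Hba-a1 and Hbb-bt and the leukocyte gene Ptprc in 0. The part of such cells in the results was not tested. Depth is unknown, because the files hold no counts. Of the 8 iron genes, 7 were listed in all 48 libraries and Steap3 in 30.

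Tfrc, the transferrin receptor gene (chr16:32608920-32632794, plus strand), fell in every fraction, and on the authors' scaling the membrane fraction held its transcript near the starting level longest. With libraries scaled to mt-encoded mRNAs, Tfrc was lower in the membrane fraction than in the cytosol at 30, 120 and 240 min (log2 -0.41, -0.22 and -0.71), of which the last passed (limma adjusted p = 0.0068). Whether that reference holds steady within a fraction was not tested. In the cytosol the replicates stood at 0.658, 0.675 and 0.771 at 30 min, at 0.506, 0.505 and 0.605 at 60 min, at 0.330, 0.296 and 0.279 at 120 min and at 0.137, 0.147 and 0.134 at 240 min. In the membrane fraction they stood at 0.940, 1.03 and 1.04, then at 0.994, 0.948 and 1.08, then at 0.800, 0.827 and 0.955, and at the end at 0.344, 0.339 and 0.312. The groups of the fractions did not overlap at any time, the lowest membrane value lying above the highest cytosolic one at each. How many of all genes separate in this way was not counted, here or for the genes below. In limma, 6.44% of all genes differed in level between membrane and cytosol at 30 min. At 60, 120 and 240 min 31.9%, 37.6% and 33.3% did. In the nucleus the 240 min values were 0.158, 0.140 and 0.139 and in total RNA 0.229, 0.227 and 0.201, so that the nucleus ended beside the cytosol and total RNA between cytosol and membrane.

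The slope of log2 ratio on time (limma, Benjamini-Hochberg over all genes of a fraction) put Tfrc at the 16.3rd percentile of 11979 genes in the cytosol, the 22.5th of 12762 in total RNA, the 22.8th of 13343 in the nucleus and the 26.5th of 12408 in the membrane fraction, counted from the steepest fall. Against the 0 min level, the cytosolic Tfrc mean was already down at 30 min (log2 -0.52 ± 0.09 SE, limma adjusted p = 0.0101), whereas the membrane mean was 0.01 ± 0.07 at 30 min and 0.01 ± 0.07 at 60 min. The first time at which the membrane level passed the test was 120 min, at -0.22 ± 0.07 (limma adjusted p = 0.0161). A single exponential with a fitted starting level gave Tfrc half-lives of 80.8 ± 10.6 min (SD over 3 replicate series) in the cytosol, 81.3 ± 45.3 min in the nucleus, 125 ± 4.1 min in total RNA and 159 ± 6.0 min in the membrane fraction. Per the paper, such fits by compartment give aggregated turnover, unlike rates of passage between compartments. The half-lives of the fractions are thus not stabilities within a fraction. The cytosolic replicate series gave 91.2, 84.0 and 70.3 min and the membrane ones 166, 155 and 157 min, which do not overlap. A series joins libraries of separate harvests by replicate number. Deviations from the group means of same-numbered libraries correlated little (median 0.03), and other ways of joining them were not tried. The membrane value depended on the window: with 30, 60 and 120 min only, the decay rate was 0.108 per h in place of 0.261.

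Steap3, a ferrireductase that prepares iron for leaving the endosome, could be tested only in the membrane fraction. It was listed in 12 membrane, 9 total, 9 nuclear and 0 cytosolic libraries. The membrane ratios were 1.60, 0.981 and 0.579 at 30 min, 0.181, 1.03 and 1.55 at 60 min, 1.17, 1.27 and 0.551 at 120 min and 2.64, 1.02 and 1.57 at 240 min. Replicates of a time spread more widely than the times differed, and the slope of 0.29 ± 0.19 per h did not pass (limma adjusted p = 0.195). In total RNA the 240 min values of 1.34, 2.25 and 2.04 were all above 1.

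**Figure D1:**
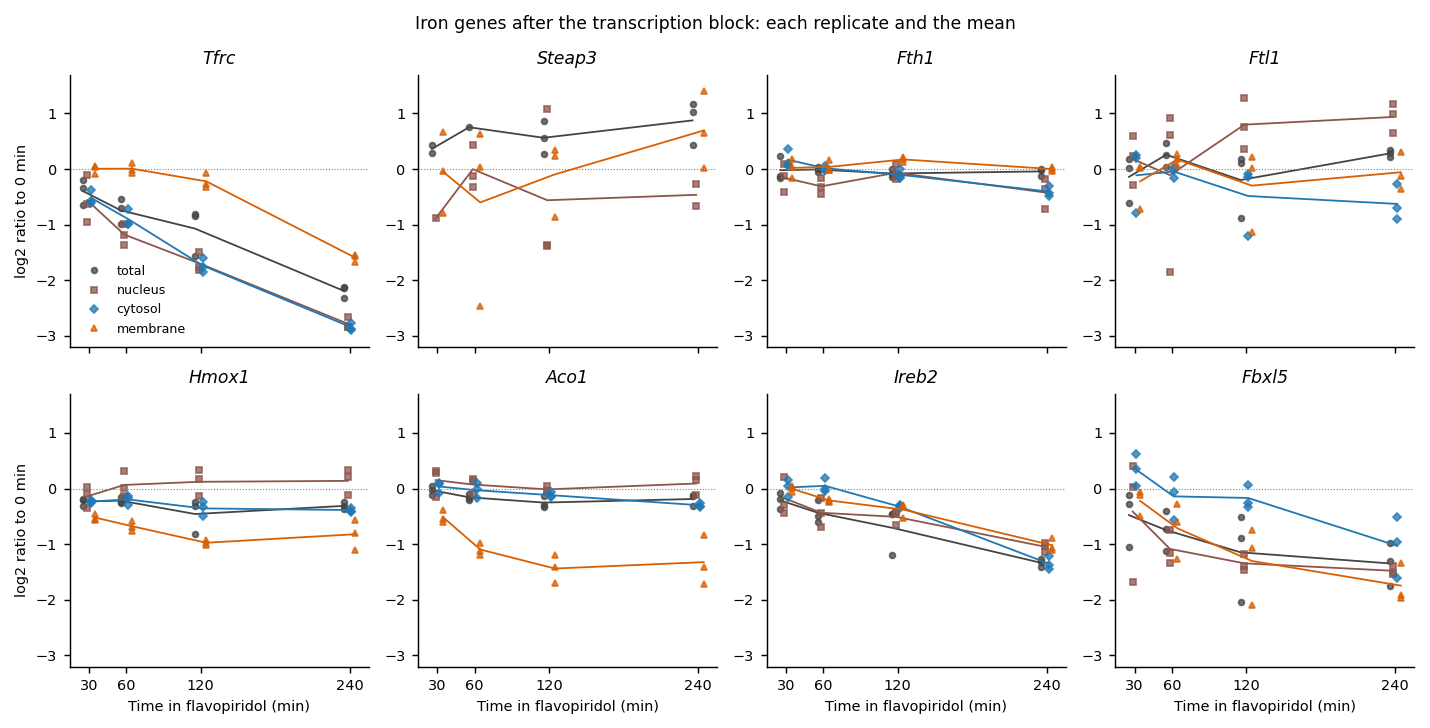
Ratios of the 8 iron genes to 0 min on a log2 axis against time in flavopiridol (min), with 1 point per replicate and lines through the replicate means of each fraction (missing points are libraries that did not list the gene). Tfrc falls to between 0.134 and 0.344 of its start at 240 min, while Fth1 ends between 0.609 and 1.03; these are on the authors' scaling.

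Fth1, the ferritin heavy chain (chr19:9980598-9985098, plus strand), ended nearer its starting level than Tfrc in every fraction. In the membrane fraction the replicates were 1.14, 0.898 and 1.02 at 30 min and 0.976, 1.03 and 0.997 at 240 min. In total RNA the values at 240 min were 0.919, 0.993 and 1.00. In the nucleus they were 0.880, 0.780 and 0.609, below 0 min by a log2 mean of -0.42 ± 0.13 (limma adjusted p = 0.0100). In the cytosol Fth1 stood at 1.28, 1.06 and 1.04 at 30 min and ended at 0.739, 0.719 and 0.813, below all earlier cytosolic values and below 0 min (log2 -0.40 ± 0.07, limma adjusted p = 2.67e-04). That cytosolic fall had a slope of -0.16 ± 0.02 per h (limma adjusted p = 1.00e-04), but after centring of the libraries on their median gene the slope was 0.13, so its sign rests on the scaling. The slopes in total RNA (-0.01 ± 0.03), nucleus (-0.06 ± 0.05) and membrane fraction (-0.01 ± 0.03) did not pass, and with median centring they were 0.22, 0.26 and 0.26, so that relative to the median gene Fth1 rose in all 4 fractions.

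Ftl1, the ferritin light chain (chr7:45457944-45459884, minus strand), is reported as uncertain, since the near-identical processed copies Ftl1-ps1 and Ftl1-ps2 have gene identifiers of their own, so that the authors' counting could split reads between them. Its nuclear values were 1.18, 1.50 and 0.816 at 30 min, 0.276, 1.53 and 1.88 at 60 min, 1.29, 2.43 and 1.68 at 120 min and 1.99, 2.26 and 1.56 at 240 min. Its cytosolic values at 240 min were 0.825, 0.613 and 0.537, and the nuclear ones lay above them without overlap. At that time 56.4% of all genes differed in level between nucleus and cytosol in limma, in either direction. No Ftl1 slope passed the test in any fraction (nucleus 0.27 ± 0.15, limma adjusted p = 0.141; cytosol -0.17 ± 0.09, limma adjusted p = 0.102). In the same 240 min libraries Ftl1-ps1 stood at 0.446, 0.600 and 0.196 in the nucleus, and Ftl1-ps2 at 1.15, 1.07 and 0.742.

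Hmox1, haem oxygenase 1, which frees iron from haem, had every membrane value below those of the other fractions at the same time. Its membrane values were 0.731, 0.678 and 0.686 at 30 min, 0.526, 0.494 and 0.508 at 120 min and 0.467, 0.578 and 0.674 at 240 min. The cytosolic values were 0.831, 0.850 and 0.870 at 30 min, 0.707, 0.845 and 0.798 at 120 min and 0.748, 0.760 and 0.789 at 240 min. In the nucleus Hmox1 ranged from 0.784 to 1.26 and did not pass the test against 0 min at any time. The membrane level was below 0 min from the first time point (log2 -0.52 ± 0.09 at 30 min, limma adjusted p = 0.0128) and reached -0.97 ± 0.09 at 120 min, yet its slope of -0.08 ± 0.04 per h did not pass (limma adjusted p = 0.139). Of its 3 membrane values at 240 min, 2 lay above all those at 120 min.

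Aco1, which encodes cytosolic aconitase or iron regulatory protein 1, dropped furthest in the membrane fraction. Its membrane replicates stood at 0.658, 0.764 and 0.683 at 30 min, at 0.435, 0.510 and 0.461 at 60 min, at 0.436, 0.307 and 0.376 at 120 min and at 0.303, 0.378 and 0.558 at 240 min. Its cytosolic replicates stood at 0.951, 1.06 and 1.07, then at 0.997, 0.885 and 1.07, then at 0.956, 0.897 and 0.912, and at 240 min at 0.833, 0.796 and 0.809. The fractions did not overlap at any time. In the nucleus Aco1 kept between 0.903 and 1.25 and in total RNA between 0.796 and 1.03. The membrane slope of -0.18 ± 0.08 per h only just passed (limma adjusted p = 0.0497) and did not pass without replicate 1 (-0.14, adjusted p = 0.294) or replicate 2 (-0.15, adjusted p = 0.191), or with a replicate block (adjusted p = 0.0698). The cytosolic slope of -0.09 ± 0.02 passed (limma adjusted p = 0.00169), and with median centring it was 0.19.

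Ireb2, which encodes iron regulatory protein 2, fell in all 4 fractions. Its cytosolic values were 0.901, 1.04 and 1.12 at 30 min, 1.00, 0.971 and 1.14 at 60 min, 0.811, 0.803 and 0.782 at 120 min and 0.429, 0.366 and 0.385 at 240 min. At 240 min it stood at 0.414, 0.401 and 0.375 in total RNA, at 0.510, 0.456 and 0.490 in the nucleus and at 0.467, 0.478 and 0.539 in the membrane fraction. The cytosol kept Ireb2 near its start for 60 min and then lost it to below all nuclear and membrane values. The slopes were -0.41 ± 0.04 in the cytosol, -0.31 ± 0.05 in total RNA, -0.28 ± 0.03 in the membrane fraction and -0.23 ± 0.05 in the nucleus, with limma adjusted p between 3.61e-07 and 0.00112. Those in total RNA and membrane stood at the 39.0th and 46.6th percentiles of all genes. With median centring the nuclear slope was 0.08, and of the 4 fractions the cytosol alone still passed. Its fitted half-life, an aggregated turnover as for Tfrc, was lowest in the cytosol (165 ± 34.5 min). It was 191 ± 5.6 min in total RNA, 217 ± 44.3 min for membrane RNA and 250 ± 184 min in the nucleus. The replicate series overlapped between fractions, with 208, 157 and 142 min in the cytosol and 198, 192 and 187 min in total RNA. Those of the membrane fraction gave 208, 185 and 271 min.

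Fbxl5, the iron-sensing adaptor of the ubiquitin ligase that degrades iron regulatory protein 2, varied more between replicates than the other sensors. Its membrane values were 0.711, 0.923 and 0.962 at 30 min and 0.395, 0.254 and 0.264 at 240 min. Its cytosolic values were 1.03, 1.28 and 1.54 at 30 min and 0.700, 0.512 and 0.328 at 240 min. Both courses fell, by slopes of -0.41 ± 0.10 in the membrane fraction (limma adjusted p = 0.00206) and -0.35 ± 0.07 in the cytosol (limma adjusted p = 9.22e-04). The membrane slope did not pass without replicate 2 (-0.36, adjusted p = 0.051). In the nucleus the 30 min values were 0.314, 1.32 and 1.02, the first from the library that stood apart, and the slope of -0.25 ± 0.12 (limma adjusted p = 0.074) became -0.32 without that library (adjusted p = 0.0176).

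In counts, 2 of 7 iron genes tested in total RNA fell with time, where 56.9% of all genes fell. In the nucleus 2 of 7 fell (61.9% of all genes), in the cytosol 5 of 7 (67.1%) and in the membrane fraction 4 of 8 (62.2%). The count that rose in limma was 0 in each fraction, also at an unadjusted p under 0.05, against 3.39%, 3.32%, 2.95% and 4.09% of all genes. In the same order of fractions, the median slopes of the iron genes were -0.04, -0.06, -0.17 and -0.13 per h, beside medians of -0.22, -0.30, -0.28 and -0.26 over all genes. Centring each library on its median gene shifted every slope by about the size of these all-gene medians, and the falling counts were then 1, 1, 2 and 1. The membrane count was 2 without replicate 2. At 240 min, 5 of 7 iron genes were below their 0 min level in total RNA (73.1% of all genes), 4 of 7 in the nucleus (77.4%), 7 of 7 in the cytosol (75.9%) and 5 of 8 in the membrane fraction (74.1%). The count in total RNA was 3 without replicate 2 and 3 without replicate 3.

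**Figure D2:**
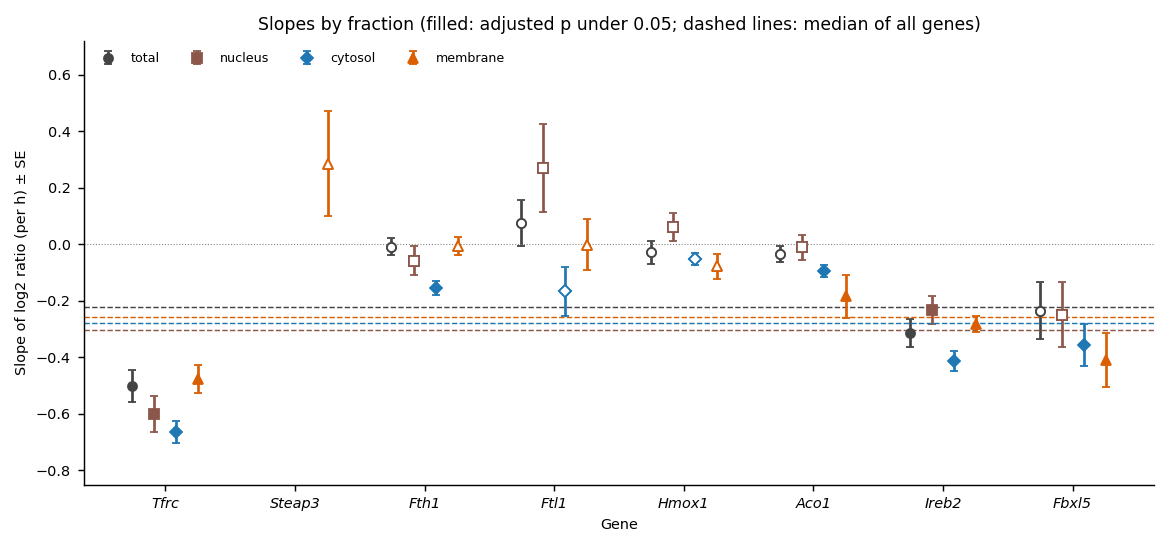
Slopes of the log2 ratio per h with their standard errors for the 8 iron genes in 4 fractions, filled where the limma adjusted p was under 0.05, with the median slope of all genes in each fraction as a dashed line. The 4 Tfrc slopes lie between -0.66 and -0.48, below the dashed lines, and those of Fth1, Hmox1 and Aco1 lie above the line of their own fraction.

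The receptor was then compared with ferritin and the sensors inside each library, where no library scaling enters. Divided by Fth1, Tfrc in the cytosol stood at 0.329, 0.326 and 0.313 at 120 min and at 0.185, 0.204 and 0.165 at 240 min. In the membrane fraction the quotients were 0.708, 0.714 and 0.872 at 120 min and 0.352, 0.330 and 0.313 at 240 min. Those of the nucleus were 0.404, 0.267 and 0.315 at 120 min and 0.180, 0.180 and 0.228 at 240 min. The transcripts thus parted in every fraction, and latest in the membrane fraction, whose 120 and 240 min quotients did not overlap with those of cytosol or nucleus.

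**Figure D3:**
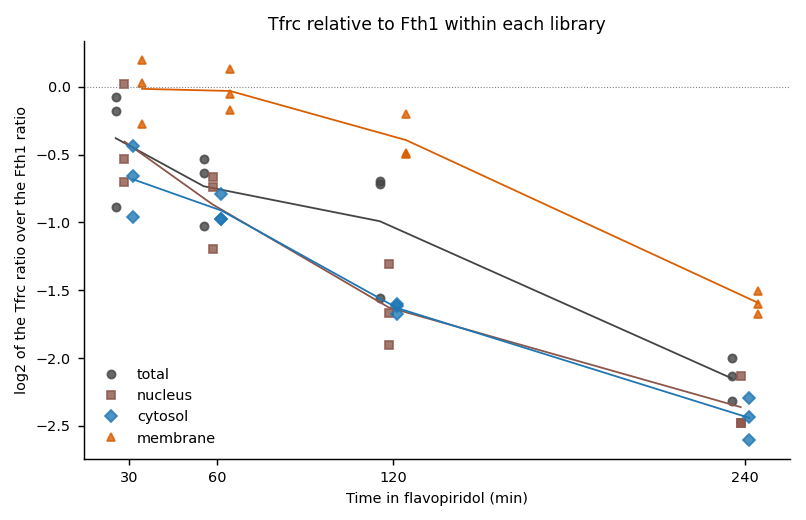
The Tfrc ratio divided by the Fth1 ratio of the same library, on a log2 axis, against time in flavopiridol (min), with 1 point per replicate and lines through the means. At 240 min the membrane points lie between 0.313 and 0.352 as linear quotients, above the cytosolic points at 0.165 to 0.204.

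The slope of each gene minus that of Tfrc was fitted for all genes. All 6 other iron genes tested in total RNA differed from Tfrc, where 69.5% of all genes differed in either direction. All 6 did so in the nucleus (68.6% of all genes) and all 6 in the cytosol (80.6%), and 6 of 7 in the membrane fraction (59.3%). Each of these differences was a slope above that of Tfrc, a direction in which 71.6% of all genes differed in the cytosol, 58.8% in total RNA, 58.1% in the nucleus and 5957 of 12407 genes in the membrane fraction. With a replicate block, Fbxl5 in total RNA (0.26, limma adjusted p = 0.0562) and Aco1 in the membrane fraction (0.29, limma adjusted p = 0.0621) no longer passed. For Fth1 the difference was 0.54 ± 0.07 per h in the nucleus, 0.51 ± 0.04 in the cytosol, 0.49 ± 0.07 in total RNA and 0.47 ± 0.05 for membrane RNA, with limma adjusted p between 9.90e-08 and 4.91e-05. For Ireb2 it was smaller, between 0.19 ± 0.03 in total RNA and 0.37 ± 0.04 in the nucleus. The exception was Fbxl5 in the membrane fraction, with 0.07 ± 0.12 (limma adjusted p = 0.651). An exact permutation of the time labels over the 12 libraries of a fraction (two-sided, 369600 arrangements) gave unadjusted p between 2.71e-06, the smallest it can give, and 0.0397 for the 24 other differences and 0.659 for Fbxl5 in the membrane fraction. With 30, 60 and 120 min only, the difference of Aco1 in the membrane fraction was -0.41 (limma adjusted p = 0.0554), and the counts in limma were 0 in total RNA and 0 in the membrane fraction over that window, with 0 and 2 at an unadjusted p under 0.05.

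To ask whether the fractions differ, the difference in slope was tested first. Between nucleus and cytosol, 1 of 7 iron genes differed (20.6% of all genes): Ireb2, whose nuclear slope was higher by 0.18 ± 0.06 per h (limma adjusted p = 0.0321). Between membrane and cytosol 1 of 7 differed (6.70% of all genes): Fth1, higher in the membrane fraction by 0.15 ± 0.04 (limma adjusted p = 0.0179). Between nucleus and membrane 0 of 7 passed in limma (8.35% of all genes). There 1 gene, Hmox1, reached an unadjusted p under 0.05 (0.0399 in limma). The Tfrc slope was higher in the membrane fraction than in the cytosol by 0.19 ± 0.06 and did not pass (limma adjusted p = 0.0639). Both calls were lost when any 1 of the 3 replicates was left out: the Ireb2 difference was then 0.16 to 0.22 and the Fth1 difference 0.12 to 0.17.

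A straight slope does not describe courses that stay flat and then drop, so membrane and cytosol were also compared at each single time, a choice made after the values were seen. Tfrc was higher in the membrane fraction by 0.52 ± 0.10 on the log2 scale at 30 min, 0.91 ± 0.10 at 60 min, 1.51 ± 0.10 at 120 min and 1.25 ± 0.10 at 240 min (limma adjusted p of 0.00621, 1.44e-05, 3.52e-08 and 9.61e-08). The medians of all genes were -0.05, -0.19, -0.11 and 0.01. The Tfrc call at 30 min was lost without replicate 1 and also without replicate 2. At 120 min Tfrc stood at the 98.8th percentile of 11086 genes, a rank that no library scaling moves. The sign itself depends on the scaling, as given above. With median centring and with the same total in each library the difference stayed positive at each time. Under scaling to mt-encoded mRNAs 60 min alone kept a positive difference, of 0.52. Per the paper, mitochondria are among the main contents of the membrane fraction, and the nuclear fraction had a slight mitochondrial contamination. Whether mt-encoded mRNAs hold a steady level within a fraction was not tested. How far those in the cytosol come from carried-over mitochondria was not tested either.

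Aco1 went the other way. Its membrane minus cytosol difference was -0.55 ± 0.16 at 30 min, -1.07 ± 0.16 at 60 min, -1.32 ± 0.16 at 120 min and -1.02 ± 0.16 at 240 min (limma adjusted p of 0.0486, 1.11e-04, 6.97e-06 and 1.07e-04). It was negative under all 3 other scalings, and at 120 min it stood at the 2.84th percentile. The 30 min call was lost without any 1 of the replicates, with values from -0.50 to -0.59.

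For Hmox1 the difference was -0.48 ± 0.10 at 60 min, -0.62 ± 0.10 at 120 min and -0.44 ± 0.10 at 240 min (limma adjusted p of 0.00182, 1.40e-04 and 0.00342). Fth1 was higher there by 0.27 ± 0.10 at 120 min and 0.40 ± 0.10 at 240 min (limma adjusted p of 0.0312 and 0.0033), though with scaling to mt-encoded mRNAs the differences were -1.46 and -1.56. Fbxl5 passed at 120 min alone, at -1.13 ± 0.34 (limma adjusted p = 0.0125), and Ireb2 went from -0.26 ± 0.09 at 60 min to 0.33 ± 0.09 at 240 min (limma adjusted p of 0.0382 and 0.0109). In all, 2 of 7 iron genes differed at 30 min (6.44% of all genes), 4 at 60 min (31.9%), 5 at 120 min (37.6%) and 5 at 240 min (33.3%). Without replicate 2 the counts were 0, 2, 3 and 2, and without replicate 3 they were 1, 2 and 3 at the first 3 times. With each harvest as a block they were 1, 3, 5 and 5, as Aco1 at 30 min (limma adjusted p = 0.0779) and Ireb2 at 60 min (limma adjusted p = 0.0819) no longer passed.

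**Figure D4:**
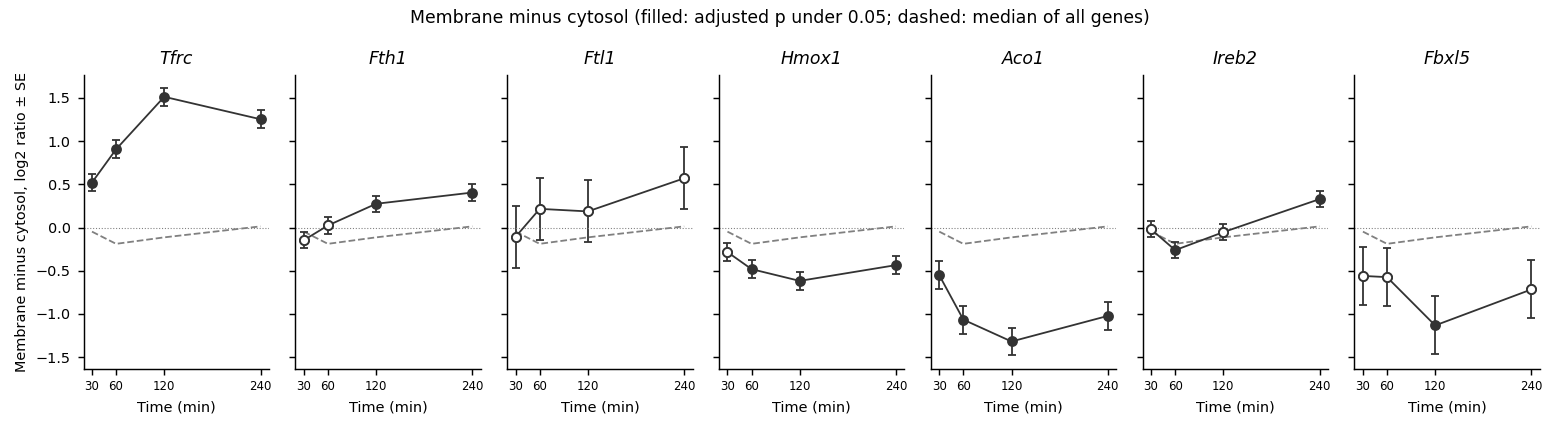
Membrane minus cytosol difference in log2 ratio, with standard errors, at 30, 60, 120 and 240 min for the 7 iron genes listed in both fractions, filled where the limma adjusted p was under 0.05, with the median of all genes dashed. Tfrc climbs to 1.51 at 120 min and Aco1 goes down to -1.32 on the authors' scaling; scaled to mt-encoded mRNAs, Tfrc is at -0.22 there.

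Among 7993 named genes listed in all 48 libraries, those with the course most like that of Tfrc over the 16 group means were Tapt1, Btd and Suco, with root mean square differences of 0.161, 0.214 and 0.245 in log2 ratio. Those most like Fth1 were Prkaca, Timm8b and Cyb5r4, at 0.101, 0.105 and 0.106.

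The wider pathway was covered by 93 other iron genes in 5 lists. Their counts and slopes are on the authors' scaling, and whether they hold under the other scalings was not tested. In total RNA 46 of the 65 tested fell (56.9% of all genes) and 2 rose (3.39%), with a median slope of -0.26 per h beside -0.22 over all genes. In the nucleus 48 of 66 fell (61.9% of all genes) and 2 rose (3.32%), in the cytosol 48 of 62 fell (67.1%), and in the membrane fraction 51 of 64 fell (62.2%). Their medians of -0.31, -0.29 and -0.29 lay close to those of all genes, while those of the 8 named genes lay above them. By list, 10 of 13 tested genes of iron import and export fell in total RNA, 2 of 4 of storage and chaperones, 10 of 14 regulators and decay factors, 7 of 9 of haem synthesis and breakdown and 17 of 25 of iron-sulphur cluster assembly. Their medians were -0.29, -0.19, -0.37, -0.15 and -0.24. The lowest slopes in total RNA were those of Nfe2l2, a regulator of Hmox1 and of the ferritin genes, at -0.98 ± 0.07, and Iba57, a factor of mitochondrial cluster assembly, at -0.76 ± 0.05 (limma adjusted p of 1.23e-07 and 1.29e-07). Zc3h12a, a ribonuclease that cleaves the Tfrc transcript, fell by 0.72 ± 0.14 per h (limma adjusted p = 5.29e-04). Nfu1, an iron-sulphur cluster scaffold, rose by 0.65 ± 0.16 per h in total RNA (limma adjusted p = 0.00302). No fraction tested showed a rise of that size: the highest slope of its list was 0.16 in the nucleus and 0.088 in the cytosol. Nfu1 was not tested in the membrane fraction. In cytosol and nucleus the decay factor list had medians of -0.56 and -0.38, beside -0.28 and -0.30 over all genes.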

How the data were processed

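Polyadenylated RNA of whole-cell, nuclear, cytosolic and membrane extracts was sequenced after a flavopiridol block in 48 libraries, 3 replicates in each of 16 groups. Per the labels, the authors aligned reads with STAR 2.7.6, counted them with RSEM 1.3.3 on mm10, scaled libraries on genes with long half-lives and set each time series relative to 0 min. What was deposited is thus a ratio per gene and library, under a heading that names a normalized read count. The scaling sets the level that counts as no change. Genes at 0 are not listed, and no depth is stated, so no counting interval is given. Sample titles give 240 min as the last time, which was used, where the protocol has 180 min.

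Of 23862 identifiers, 23786 matched a symbol in the supplied tables. Genes listed in all libraries of a fit were tested on log2 of the ratio, with no pseudocount, in limma 3.58.1 (R 4.3.3, with a trended prior variance, a two-sided test, a threshold of 0.05 and Benjamini-Hochberg adjustment over all of them). Fits gave the slope on time in h, its difference between 2 fractions over 24 libraries, the slope of a gene minus that of Tfrc, and the level at each time against 0 min. Membrane and cytosol levels at single times were compared by a choice made after seeing the data. Half-lives are least squares of A·exp(-kt) in Python 3.11.15 with SciPy 1.17.1. Scripts were tested on simulated data. The members, gene lists and tests were chosen with earlier results of these data known. The 8 members were all named. Other iron genes were named where their slope differed between membrane or nucleus and cytosol, or where it was among the 2 lowest or was the highest of a list in total RNA, and the 3 genes of most similar course were named for Tfrc and Fth1. Some genes that this rule picks are not reported here. Per the study's methods, cells were fractionated after each harvest, so fractions of 1 replicate and time share their cells. Deviations from the group means of such libraries correlated between -0.10 and 0.17 over nucleus, cytosol and membrane fraction, and a fit with each harvest as a block was added after seeing the data. The alternatives covered scaling, pseudocount, filters, a replicate block, limma without trend, each replicate left out, the time window and the last time. They were run for the 8 members only. Hairpins were searched in GENCODE M21 transcripts, and sequences are from that release.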

Additional observations from a re-analysis of the deposited data

Results flagged for a closer look

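For 2 genes the difference in slope between fractions passed its own test in limma. The Ireb2 slope was higher in the nucleus than in the cytosol by 0.18 log2 per h, and the Fth1 slope was higher in the membrane fraction than in the cytosol by 0.15 log2 per h. The nuclear means of Ireb2 were the lower ones at 30, 60 and 120 min (0.905, 0.748 and 0.705, against 1.02, 1.04 and 0.798 in the cytosol). At 240 min the nuclear mean was the higher one (0.485 against 0.394). Both calls were lost without any 1 of the 3 replicates. The Ireb2 call was also lost under scaling to mt-encoded mRNAs, with 30, 60 and 120 min only and with the last time taken as 180 min. The Fth1 call was lost with median centring, with the same total in each library and with 30, 60 and 120 min only, and under scaling to mt-encoded mRNAs its value was -0.24. The cause of either difference was not tested.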

How the results depend on the processing

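The sign of slow changes depended on the scaling of the libraries. The falling counts of 2, 2, 5 and 4 iron genes in total RNA, nucleus, cytosol and membrane fraction became 1, 1, 2 and 1 after centring of the libraries on their median gene. With the same total in each library those of nucleus, cytosol and membrane became 1, 2 and 2, and with libraries scaled to mt-encoded mRNAs those of total RNA, nucleus and cytosol became 5, 1 and 1. Counts below the 0 min level at 240 min became 2, 1, 2 and 2 with median centring, 2, 1 and 2 in total RNA, nucleus and cytosol with the same total, and 1 in the cytosol with mt-encoded mRNAs. Slope differences in limma between nucleus and cytosol, membrane and cytosol, and nucleus and membrane counted 2, 0 and 2 with median centring, and 0, 3 and 6 with mt-encoded mRNAs, where the 30 min level count was 6. With the same total, 0 differed between membrane and cytosol. At an unadjusted p under 0.05 the counts of 0 were 3 with median centring, 1 with mt-encoded mRNAs and 2 with the same total. With 30, 60 and 120 min only, 1, 1 and 2 fell in total RNA, nucleus and cytosol, 0 differed from Tfrc in total RNA and 0 in the membrane fraction, and 0, 2 and 1 differed in slope between the pairs of fractions. With the last time taken as 180 min, 0 differed between nucleus and cytosol in limma (3 at an unadjusted p under 0.05). The 30 min level count was 1 with genes listed in at least 6 libraries of a fraction and with limma without trend.

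Leaving out each replicate in turn gave 3 to 4 genes below 0 min at 240 min in total RNA, 2 to 4 falling in the membrane fraction and 0 with a slope difference from the cytosol in nucleus or membrane (1 to 3 and 2 to 3 at an unadjusted p under 0.05 in limma). Level counts were 0 to 1 at 30 min, 2 to 3 at 60 min, 3 to 5 at 120 min and 2 to 5 at 240 min. The causes of these changes were not tested.

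Over all times, deviations from the group means correlated between -0.20 and 0.27 for same-numbered libraries (median 0.03, 21 of 360 above 0.1). With the replicate number as a replicate block the 30 min level count was 1, the cytosolic falling count 6, the membrane falling count 3, and 5 genes differed from Tfrc in total RNA and 5 in the membrane fraction. With each harvest as a block the 30 min level count was 1, and the slope difference counts of 1, 1 and 0 did not change.

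Slopes relative to Tfrc turned sign in the shorter window only. After median centring, values turned sign for slope in total RNA (Fth1 0.22, Hmox1 0.20, Aco1 0.19), level at 240 min in total RNA (Fth1 1.01, Hmox1 0.74, Aco1 0.87), slope in the nucleus (Fth1 0.26, Aco1 0.30, Ireb2 0.084, Fbxl5 0.066), level at 240 min in the nucleus (Fth1 1.10, Ireb2 0.48, Fbxl5 0.046), slope in the cytosol (Fth1 0.13, Ftl1 0.11, Hmox1 0.23, Aco1 0.19), level at 240 min in the cytosol (Fth1 0.66, Ftl1 0.44, Hmox1 0.68, Aco1 0.77, Fbxl5 0.039), slope in the membrane fraction (Fth1 0.26, Ftl1 0.26, Hmox1 0.18, Aco1 0.077), level at 240 min in the membrane fraction (Ftl1 1.02, Hmox1 0.25, Ireb2 0.056), the level difference at 30 min for membrane minus cytosol (Ireb2 0.00030), the level difference at 120 min for membrane minus cytosol (Ireb2 0.088) and the slope difference for nucleus minus membrane (Fth1 0.0030). With the same total in every library, values turned sign for slope in total RNA (Fth1 0.15, Hmox1 0.13, Aco1 0.12), level at 240 min in total RNA (Fth1 0.75, Hmox1 0.48, Aco1 0.60), slope in the nucleus (Fth1 0.14, Aco1 0.19), level at 240 min in the nucleus (Fth1 0.55), slope in the cytosol (Fth1 0.064, Ftl1 0.053, Hmox1 0.17, Aco1 0.13), level at 240 min in the cytosol (Fth1 0.41, Ftl1 0.19, Hmox1 0.43, Aco1 0.52), slope in the membrane fraction (Fth1 0.18, Ftl1 0.18, Hmox1 0.10), level at 240 min in the membrane fraction (Ftl1 0.69) and the level difference at 30 min for membrane minus cytosol (Ireb2 0.0067). With libraries scaled to mt-encoded mRNAs, values turned sign for slope in total RNA (Ftl1 -0.046), level at 240 min in total RNA (Ftl1 -0.20), slope in the nucleus (Fth1 0.13, Aco1 0.18), slope in the cytosol (Fth1 0.0025, Hmox1 0.11, Aco1 0.064), level at 240 min in the cytosol (Fth1 0.49, Ftl1 0.27, Hmox1 0.51, Aco1 0.60), level at 240 min in the membrane fraction (Steap3 -0.37, Fth1 -1.06), the slope difference for membrane minus cytosol (Tfrc -0.20, Fth1 -0.24, Ftl1 -0.22, Ireb2 -0.25), the level difference at 30 min for membrane minus cytosol (Tfrc -0.41), the level difference at 60 min for membrane minus cytosol (Fth1 -0.36, Ftl1 -0.17), the level difference at 120 min for membrane minus cytosol (Tfrc -0.22, Fth1 -1.46, Ftl1 -1.55), the level difference at 240 min for membrane minus cytosol (Tfrc -0.71, Fth1 -1.56, Ftl1 -1.39, Ireb2 -1.63) and the slope difference for nucleus minus membrane (Tfrc 0.30, Fth1 0.37). With 30, 60 and 120 min only, values turned sign for slope in total RNA (Ftl1 -0.10), slope minus Tfrc slope in total RNA (Fbxl5 -0.0081), slope in the nucleus (Fth1 0.086), slope in the membrane fraction (Fth1 0.11), slope minus Tfrc slope in the membrane fraction (Hmox1 -0.14, Aco1 -0.41, Ireb2 -0.078, Fbxl5 -0.54) and the slope difference for nucleus minus cytosol (Aco1 -0.0062, Fbxl5 -0.28). With the last time taken as 180 min, values turned sign for slope in the membrane fraction (Fth1 0.0047). Leaving out a replicate turned the sign of the following values, which ranged from -0.029 to 0.028 for Fth1 (slope total), -0.11 to 0.0087 for Fth1 (slope nucleus), -0.045 to 0.041 for Aco1 (slope nucleus), -0.032 to 0.023 for Fth1 (slope membrane), -0.10 to 0.064 for Ftl1 (slope membrane), -0.020 to 0.018 for Fth1 (level at 240 min membrane), -0.24 to 0.092 for Ftl1 (level at 240 min membrane), -0.069 to 0.023 for Hmox1 (slope difference membrane minus cytosol), -0.17 to 0.011 for Fbxl5 (slope difference membrane minus cytosol), -0.11 to 0.076 for Ireb2 (level difference at 30 min membrane minus cytosol), -0.050 to 0.079 for Fth1 (level difference at 60 min membrane minus cytosol), -0.44 to 0.78 for Ftl1 (level difference at 120 min membrane minus cytosol), -0.11 to 0.022 for Ireb2 (level difference at 120 min membrane minus cytosol), -0.13 to 0.016 for Fth1 (slope difference nucleus minus membrane) and -0.014 to 0.085 for Ireb2 (slope difference nucleus minus membrane). Of 290 alternative decay rates, 112 moved by more than the spread between replicates. Depth is unknown, so counting error could not be set beside these values.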

Other observations

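Outside the 8 members, 18 of 60 iron genes differed in slope between nucleus and cytosol, 7 lower and 11 higher in the nucleus (8.30% and 12.3% of all genes), and 4 of 59 between membrane and cytosol (6.70% of all genes). Among the regulators and decay factors, genes with a higher slope in the nucleus included the following, all values being nucleus minus cytosol in log2 per h with the SE: Nfe2l2 (0.41 ± 0.06), Rc3h1 (0.44 ± 0.07), Zfp36l1 (0.35 ± 0.09), Zfp36l2 (0.51 ± 0.18) and Epas1 (0.19 ± 0.05). Slopes start at 30 min, so a higher one need not be a slower loss from 0 min. At 30 min 4 of 13 tested genes of this list were lower in the nucleus, down to log2 -2.23, and 1 was higher (23.1% and 7.05% of all genes). Rc3h1 and the Zfp36 proteins bind decay elements in the 3′ untranslated regions of transcripts. Among import and export genes, 3 had a lower slope in the nucleus: the mitochondrial iron carriers Slc25a37 (-0.34 ± 0.06) and Slc25a28 (-0.45 ± 0.09) and the lysosomal channel gene Mcoln1 (-0.43 ± 0.15). These slope calls had limma adjusted p between 1.26e-04 and 0.0438. The alternatives of scaling, filter and left-out replicates were run for the 8 members only. Whether the calls on other iron genes in this section hold under them was not tested.

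In haem synthesis, the nucleus minus cytosol difference was -0.70 ± 0.08 for Ppox, the enzyme before ferrochelatase (limma adjusted p = 1.23e-05), and 0.26 ± 0.05 for Cpox. In iron-sulphur cluster assembly it was -0.40 ± 0.07 for Mms19 and -0.45 ± 0.10 for Ndor1, and 0.38 ± 0.09 for Ciao1 and 0.11 ± 0.03 for Hspa9. Glrx3 and Pcbp1, both iron chaperones, had -0.26 ± 0.09 and 0.17 ± 0.05. Between membrane and cytosol the differences were -0.27 ± 0.04 for Mms19, -0.15 ± 0.04 for Slc25a37, 0.21 ± 0.06 for Rc3h1 and 0.56 ± 0.16 for Zfp36l2. In total RNA, the lowest slopes of the lists included Abcb6 (-0.54 ± 0.16), Steap1 (-0.49 ± 0.03), Bola2 (-0.52 ± 0.07), Pcbp1 (-0.26 ± 0.04), Isca1 (-0.50 ± 0.04), Uros (-0.44 ± 0.16) and Ppox (-0.26 ± 0.05), all past the limma test. The highest slopes of their lists included Ncoa4 (-0.07 ± 0.19) and Mcoln1 (-0.05 ± 0.07), which did not pass.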
